A study of Mus musculus with 6 samples.

Results

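The genes of DNA replication and nucleotide synthesis are described here in the optic fissure of mouse embryos with and without the FGF receptors Fgfr1 and Fgfr2 in the early eye. They were 42 named genes, and all 42 were measured, among 18193 genes with a probe set of their own on the array. A gene was represented by the probe set with a single matching symbol and the highest mean over the 6 arrays, and all 42 passed the filter on dim probe sets, as did 12282 genes in all. The optic fissure is the groove on the underside of the optic cup, which closes during development, and the samples were cut out by laser-assisted dissection from C57BL/6J embryos at E11.5, that is, counted in embryonic days. All 6 samples carried floxed alleles of both receptor genes (Fgfr1fx/fx;Fgfr2fx/fx). The 3 mutant samples also carried Six3Cre, a transgene that drives recombination in the early eye field and forebrain, and the 3 control samples lacked it (Six3Cre-). Each group held 1 array numbered 8711, 1 numbered 9216 and 1 numbered 9266. The labels do not say whether samples came from separate embryos or pools, so a p-value here speaks only of the spread among these samples, which could be technical. The precision of every value is limited by there being 3 arrays a group.

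Each round of DNA replication begins with licensing, in which the origin recognition complex, Cdc6 and Cdt1 load the Mcm2-7 helicase onto DNA. In S phase Cdc45 and the GINS complex join the Mcm ring to form the active helicase, the polymerase alpha and primase complex lays primers, and the delta and epsilon polymerases extend them on the Pcna clamp. Ribonucleotide reductase, thymidylate synthase and thymidine kinase supply the deoxynucleotides, and many of these genes are transcribed under E2F factors as cells enter S phase. FGF signalling is a known growth signal of the early eye, and the cells lining the fissure at this age are mostly dividing progenitors.

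In the mutants, 37 of the 42 replication genes (88.1%) had a lower mean on the log2 scale, where 46.4% of all genes did. The median log2 difference, mutant minus control, was -0.26, with quartiles of -0.54 and -0.11, and the median over all genes was 0.03. The lowest was -1.40, for Tyms, which encodes thymidylate synthase, and the highest was 0.19, for the origin recognition subunit Orc3. The 5 genes with higher mutant means were Gins3, Orc3, Rfc4, Prim2 and Rpa3. No single gene passed the test across the array: 0 of 27022 probe sets (0%) had a Benjamini-Hochberg adjusted p under 0.05 in limma, and the smallest adjusted p among the replication genes was 0.620, for Tk1. Before adjustment, 5 of the 42 (11.9%) were lower in the mutants with p under 0.05, and 0 were higher. They were Cdc45, Cdc6, Rfc5, Lig1 and Tk1. The lower share was 2.52% over all genes and 2.55% over all probe sets, of which 689 were lower and 817 higher at that level. In 10 of the 42 (23.8%) every mutant value lay below every control value, against 5.43% of all genes, and these were Cdc45, Orc2, Cdc6, Cdt1, Rfc3, Rfc5, Pola2, Rpa2, Tyms and Tk1. Centring each array on its median moved the median over all tested probe sets from -0.05 to 0.11, and then 26 of the 42 were lower, with a median of -0.10. The replication genes' median lay 0.21 below that of all probe sets with the scaling as deposited, and centring leaves this gap as it is by construction.

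**Figure D1:**
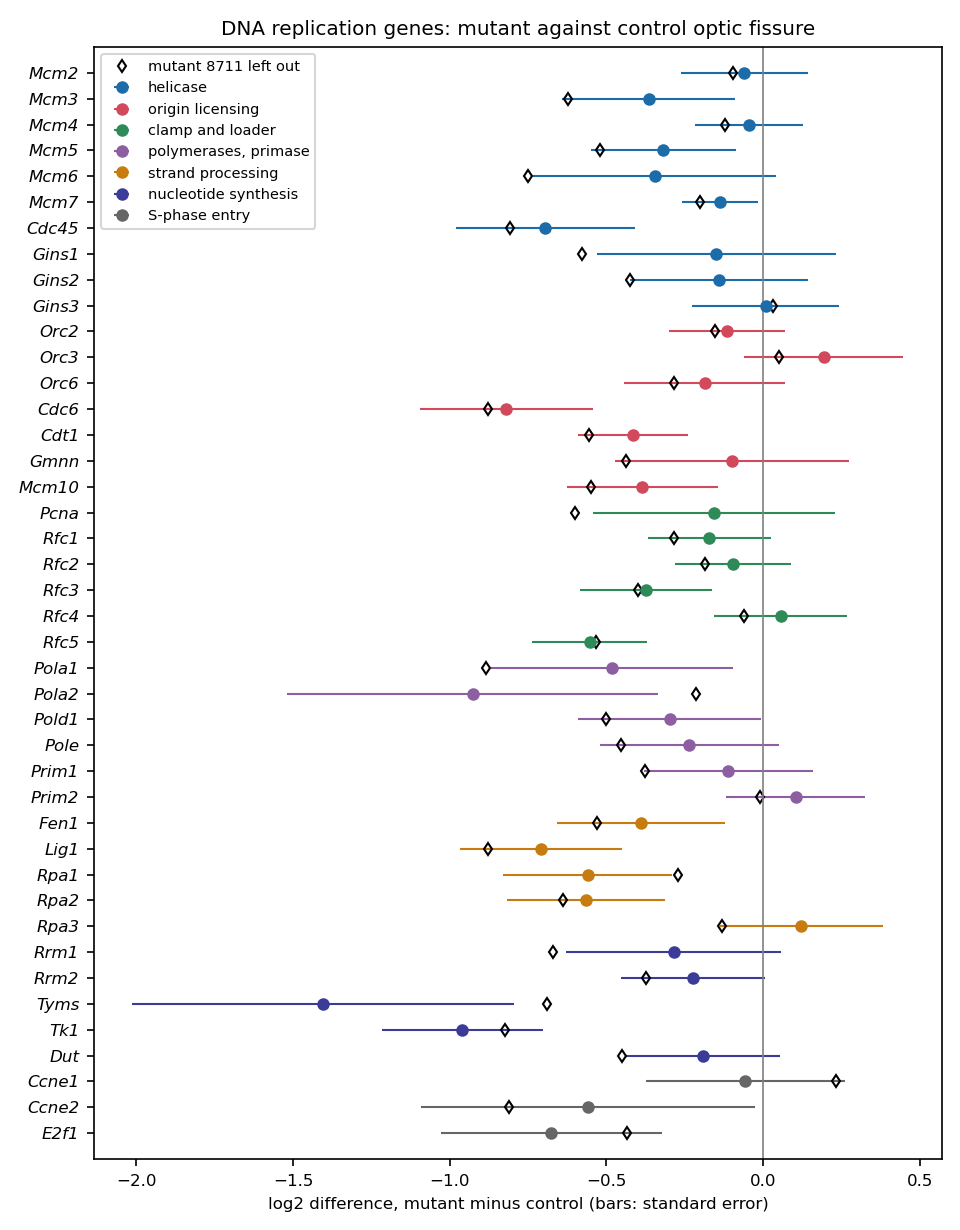
Log2 difference (mutant minus control, horizontal axis) of each of the 42 replication genes, grouped by role, with bars for the standard error and open diamonds for the difference without mutant 8711. The filled points of 37 genes lie below 0, from -1.40 for Tyms, and after median centring 26 do.

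One mutant array stood apart from the rest. The array of the mutant sample numbered 8711 had a 3' to 5' ratio of the Gapdh control probe sets of 93.6, with 4.26 to 15.0 elsewhere, and a median intensity of 18.1 against 28.7 to 34.6. By the Actb control probe sets it stood apart far less, with a ratio of 14.8 against 6.03 to 12.1. Without mutant 8711, 39 of the 42 genes had lower mutant means (47.2% of all genes did), and their median was -0.44 against 0.02 over all genes. At an unadjusted p under 0.05, limma then had 17 of the 42 (40.5%) lower and 0 higher, with 3.97% of all genes lower. The 17 were the 5 above with Mcm3, Mcm5, Mcm6, Mcm10, Gins1, Cdt1, Pcna, Pola1, Rpa2, Rrm1, Tyms and Dut. In 25 of the 42 the remaining mutant values lay below all controls, against 11% of all genes. No replication gene passed adjustment without it either, with a smallest adjusted p of 0.308. Below, differences of some single genes are also given without this array, and where none is given the difference was not necessarily unchanged. Leaving out other arrays also moved these values. Without control 8711, 1 of the 42 (2.38%) was lower at that threshold, against 0.925% of all probe sets, and without control 9266 it was again 1, against 0.981%. Without mutant 9266 it was 3 (7.14%), against 4% of all probe sets. The median without mutant 9266 was -0.10, with 30 genes lower, and lay 0.02 below the median of all probe sets, at -0.08. That gap, 0.21 with all arrays, was 0.52 without both 8711 arrays. As a check of the labels, Fgfr1 by its brightest probe set read 246.6, 89.8 and 238.1 in control tissue and 59.9, 64.1 and 141.4 in mutant tissue, and the groups overlapped. The brightest Fgfr2 probe set was higher in all 3 mutants, at 869.9, 927.9 and 1316, against 351.2, 314.1 and 474.1 in the controls. Where these probes lie relative to the floxed exons was not analysed here, and probes outside the deleted part check nothing. In whole tissue, fewer cells of a type and less RNA per cell cannot be told apart.

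The promoters of these genes show one feature the choice of genes did not use. RefSeq promoters (GRCm38.p6), from 250 bases before to 50 bases after the gene start, were matched for 34 of the 42 genes, all but Mcm4, Rfc2, Gmnn, Gins1, Gins2, Pole, Prim2 and Ccne2. They were searched on both strands for 4 strings of the E2F type, TTTCCCGC, TTTCGCGC, TTTGCCGC and TTTGGCGC, and for the CCAAT box. An E2F-type string was present for 12 of the 34 genes (35.3%) and for 2.6% of the 27025 genes of the table. CCAAT was present for 20 of 34 (58.8%), against 41.1% of the table. The 12 genes were Mcm3, Mcm5, Mcm6, Mcm7, Gins3, Orc3, Cdc6, Cdt1, Rfc3, Pola1, Pold1 and Lig1. Of the 18 E2F-type matches, 2 pairs overlapped each other and 1 match overlapped a CCAAT. The 160 bases before the start are printed below 5′ to 3′ on the strand of the gene, with E2F-type strings in capitals on either strand, for 4 genes with a match and for Tk1, the gene with the smallest p, which has none. Mcm5 lies at chr8:75109349-75109508 on the plus strand and Cdc6 at chr11:98907991-98908150 on the plus strand. Mcm6 lies at chr1:128359706-128359865, Pola1 at chrX:93632156-93632315 and Tk1 at chr11:117826015-117826174, all on the minus strand.
Mcm5: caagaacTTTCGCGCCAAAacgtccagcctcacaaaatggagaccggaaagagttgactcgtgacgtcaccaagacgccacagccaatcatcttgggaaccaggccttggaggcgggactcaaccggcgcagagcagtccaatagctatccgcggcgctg
Mcm6: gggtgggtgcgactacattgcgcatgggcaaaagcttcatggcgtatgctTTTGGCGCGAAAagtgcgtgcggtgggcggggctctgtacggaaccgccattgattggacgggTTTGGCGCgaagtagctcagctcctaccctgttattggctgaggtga
Cdc6: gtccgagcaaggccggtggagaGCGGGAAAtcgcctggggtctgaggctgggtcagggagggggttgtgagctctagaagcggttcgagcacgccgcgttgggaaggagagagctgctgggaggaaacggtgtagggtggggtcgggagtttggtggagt
Pola1: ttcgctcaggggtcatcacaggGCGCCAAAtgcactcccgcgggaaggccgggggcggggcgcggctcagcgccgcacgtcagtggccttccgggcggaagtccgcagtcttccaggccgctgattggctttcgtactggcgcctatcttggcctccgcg
Tk1: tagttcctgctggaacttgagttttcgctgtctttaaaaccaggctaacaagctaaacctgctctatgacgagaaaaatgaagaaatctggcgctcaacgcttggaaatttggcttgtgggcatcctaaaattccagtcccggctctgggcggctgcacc

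In Mcm5 the capitals are 2 overlapping matches that begin 153 and 149 bases before the start. Mcm6 has an overlapping pair 110 and 106 bases before the start and a further match 47 bases before it, and Cdc6 and Pola1 each have 1 match 138 bases before the start. The 12 genes with a string had a median log2 difference of -0.36 with 10 lower, and the 22 without had -0.25 with 20 lower. Without mutant 8711 these medians were -0.54 and -0.41. The difference between both sets of genes was not tested, and a match is a description of these letters, not of a bound site.

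The helicase genes had small differences, and 9 of the 10 had lower mutant means, with a median of -0.15. Cdc45, which joins the Mcm ring to form the active helicase, had 156.4, 134.9 and 125.9 in control tissue and 99.7, 97.7 and 62.7 in mutant tissue. All 3 mutants lay below all 3 controls, the means were 139 ± 15.7 and 86.7 ± 20.8 (SD, n = 3), and the log2 difference was -0.70 (SE 0.29, limma, adjusted p = 0.852). The Mcm ring subunits differed in size. Mcm3 had -0.37, Mcm6 -0.35 and Mcm5 -0.32, while Mcm7 had -0.14, Mcm2 -0.06 and Mcm4 -0.04, and the last 3 were above 0 after median centring. Gins1 and Gins2, subunits of the GINS complex, had -0.15 and -0.14, both above 0 after median centring, and Gins3 had 0.01. Without mutant 8711, Mcm6 had -0.75, Mcm3 -0.62, Gins1 -0.58, Mcm5 -0.52 and Gins2 -0.42, all with mutant values below the controls. Mcm2, Mcm4, Mcm7 and Gins3 stayed between -0.20 and 0.03. Mcm6 had 1980, 1162 and 1685 in control tissue and 2166, 1021 and 851.7 in mutant tissue, so that mutant 8711 was its highest array and the other mutants its lowest.

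Among the licensing genes, 6 of 7 had lower mutant means, with a median of -0.19. Cdc6, the ATPase that loads the Mcm ring with Cdt1, had 323.5, 371.1 and 330.4 in control tissue and 209.0, 251.5 and 135.7 in mutant tissue. The groups did not overlap, and the log2 difference was -0.82 (SE 0.28, limma, adjusted p = 0.797), or -0.88 without mutant 8711. Cdt1, its partner in loading, had the closest controls of all, at 1732, 1770 and 1746, and had 1593, 1224 and 1157 in the mutants. Its difference of -0.42 (SE 0.18, limma, adjusted p = 0.852) became -0.56 without mutant 8711, and all mutant values lay below the controls. Orc2, a subunit of the origin recognition complex, had 304.9, 310.6 and 321.6 against 304.1, 290.4 and 271.0. These groups also did not overlap, but the gap was under 1 unit of intensity, the difference was -0.12, and after median centring it was above 0. Mcm10, an initiation factor that acts with Cdc45, had -0.39, Orc6 -0.19 and Orc3 0.19. Gmnn, which encodes geminin, the inhibitor of Cdt1, spanned 1859, 1262 and 670.4 in the mutants, on both sides of its controls at 1071, 1487 and 1218. Its difference was -0.10 with mutant 8711 (above 0 after median centring) and -0.44 without it.

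The clamp Pcna and its loader, replication factor C, had lower mutant means in 5 of 6 genes, with a median of -0.17. Rfc5 had 696.3, 572.1 and 673.0 in control tissue and 427.0, 414.2 and 477.3 in mutant tissue. Its groups did not overlap, and the difference of -0.55 (SE 0.18, limma, adjusted p = 0.776) was -0.53 without mutant 8711. Rfc3 had 278.2, 263.0 and 257.1 against 212.5, 230.0 and 175.9, again without overlap, with a difference of -0.37. The other loader subunits were closer to their controls, with Rfc1 at -0.17, Rfc2 at -0.10 (above 0 after median centring) and Rfc4 at 0.06. Pcna had tight controls, at 3713, 3814 and 3650, and mutants of 6176, 3056 and 1972. Mutant 8711 was thus the highest of the 6 arrays and the other mutants were the lowest, so the difference was -0.16 (SE 0.39) with it, 0.0041 after median centring, and -0.60 without it.

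The polymerase and primase genes had a median of -0.27, with 5 of 6 lower. Pola2, the B subunit of polymerase alpha, had 182.9, 165.7 and 189.9 in control tissue and 33.7, 146.7 and 162.4 in mutant tissue. All mutants lay below all controls, but the difference of -0.93 (SE 0.59, limma, adjusted p = 0.852) rested on the value of 33.7 in mutant 8711 and was -0.21 without it. Pola1, the catalytic subunit, moved the opposite way with this array, from -0.48 to -0.88 without it. Its mutant values were 349.8, 185.9 and 122.4 and its controls 259.6, 276.7 and 305.1, so that mutant 8711 was the highest array for Pola1 and the lowest for Pola2. Pold1 and Pole, the catalytic subunits of the delta and epsilon polymerases, had -0.30 and -0.24, or -0.50 and -0.45 without mutant 8711. The primase subunits Prim1 and Prim2 had -0.11 (above 0 after median centring) and 0.10.

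Genes that process and cover single strands had a median of -0.56, with 4 of 5 lower. Lig1, the ligase that joins Okazaki fragments, had 887.8, 601.2 and 942.6 in control tissue and 612.8, 410.2 and 455.3 in mutant tissue. Mutant 8711 lay just above the lowest control, so the groups overlapped, and the difference was -0.71 (SE 0.26, limma, adjusted p = 0.852), or -0.88 without that array. Rpa2, a subunit of the single-strand binding protein RPA, had 778.8, 607.0 and 956.1 against 574.8, 408.6 and 592.0. Its groups did not overlap, and the difference was -0.57 (SE 0.25, limma, adjusted p = 0.852). The largest RPA subunit, Rpa1, had -0.56 with mutant 8711, where its value was the lowest, and -0.27 without. The smallest, Rpa3, had 0.12 and -0.13. The flap endonuclease Fen1 had -0.39 and -0.53.

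All 5 genes of nucleotide synthesis had lower mutant means, with a median of -0.28. Tk1, the thymidine kinase of the salvage pathway, had 191.2, 226.9 and 230.3 in control tissue and 90.7, 105.0 and 139.1 in mutant tissue. All mutant values lay below all controls, with means of 216 ± 21.7 in control and 112 ± 24.9 in mutant tissue (SD, n = 3). The log2 difference was -0.96 (SE 0.26, limma, adjusted p = 0.620) and was -0.82 without mutant 8711. Tyms, which makes thymidylate from deoxyuridylate, had 107.6, 131.1 and 147.9 in control tissue and 16.5, 88.2 and 69.9 in mutant tissue. Its groups did not overlap, and the difference of -1.40 (SE 0.61, limma, adjusted p = 0.852) was -0.69 without mutant 8711. After median centring, Tk1 and Tyms were the 2 replication genes (4.76%) lower with p under 0.05 before adjustment, beside 506 of 27022 probe sets. The large and small subunits of ribonucleotide reductase, Rrm1 and Rrm2, had -0.28 and -0.22, and Dut, which removes dUTP, had -0.19. Without mutant 8711 these were -0.67, -0.38 and -0.45. Rrm1 followed Pcna in its pattern, with 2364 in mutant 8711 and 1228 and 909.6 in the other mutants, against 1671, 1561 and 1831 in the controls.

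The 3 genes of S-phase entry had a median of -0.56. E2f1, a transcription factor that drives many replication genes, had 67.6, 99.7 and 75.5 in control tissue and 34.8, 70.1 and 49.1 in mutant tissue. Mutant 9216 lay above the lowest control, and the difference was -0.68 (SE 0.35, limma, adjusted p = 0.852). The E-type cyclins Ccne1 and Ccne2 activate Cdk2 at the start of S phase. Ccne2 had -0.56 (SE 0.53), and Ccne1 had -0.06 (SE 0.32), which was above 0 after median centring or quantile normalization and 0.23 without mutant 8711. These 3 genes had their highest value in control 9216, a pattern shared by 8 of the other 39 genes. That made 11 of the 42 (26.2%), against 9.4% of all genes.

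**Figure D2:**
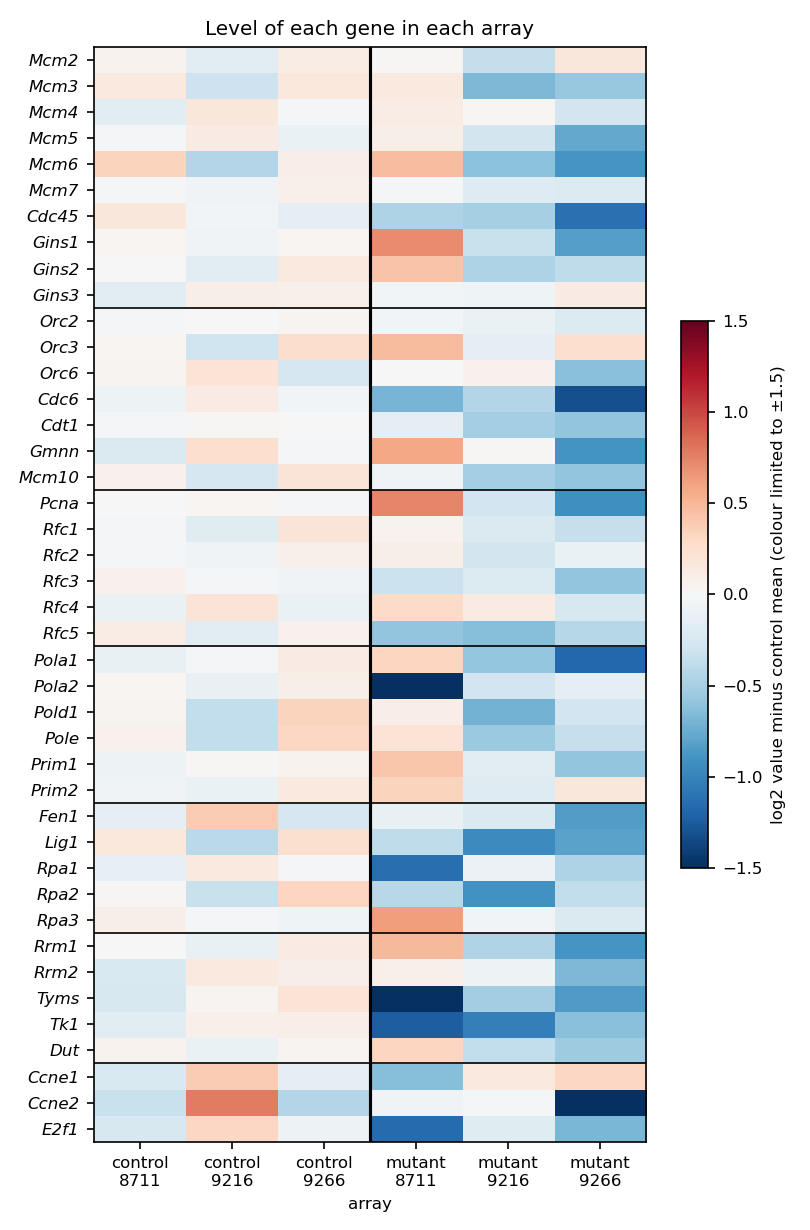
Log2 level of each replication gene (rows, grouped by role) in each of the 6 arrays (columns), relative to the mean of the 3 controls, with blue for lower and red for higher. Mutant 9266 is the lowest array for 24 of the 42 genes (57.1%, against 15.7% of all genes). Mutant 8711 is the highest for 14 (33.3%, against 30.6%) and the lowest for 6 (14.3%, against 26.4%).

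The mutant arrays differed among themselves more than the controls did. Relative to the control mean, the median of the 42 genes was -0.01, -0.02 and 0.07 in controls 8711, 9216 and 9266, and 0.03, -0.28 and -0.58 in the mutants with these numbers. Over all genes the mutant medians were 0.09, -0.02 and 0.09. Mutants 9216 and 9266 were each below the control mean for 37 of the 42 genes, and mutant 8711 for 19. Mutant 9266 was the lowest array for 24 genes (57.1%, against 15.7% of all genes). Mutant 8711 was the highest for 14 (33.3%, against 30.6%), among them Pcna, Rrm1, Mcm6, Gins1 and Gmnn. The SD of log2 values was larger in the mutants than in the controls for 38 of the 42 genes (90.5%), and for 70.1% of all genes. The median SD was 0.40 in the mutants and 0.15 in the controls, against 0.39 and 0.26 over all genes.

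**Figure D3:**
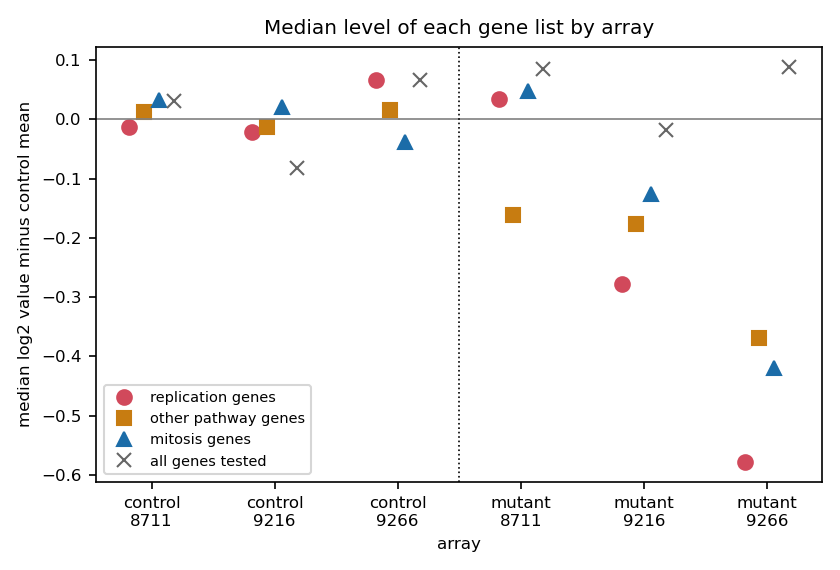
Median log2 level relative to the control mean (vertical axis) in each of the 6 arrays for the replication genes, the other replication genes listed, the mitosis genes and all genes tested. The replication genes stand at 0.03, -0.28 and -0.58 in mutants 8711, 9216 and 9266, and all genes at 0.09, -0.02 and 0.09.

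Many of these genes have several probe sets, and the dimmer ones had a lower median, with a clear gap in mutant 8711 only. Of 94 probe sets of the 42 genes, 83 passed the filter, and 10 of these (12.0%) were lower in the mutants at an unadjusted p under 0.05, against 2.55% of all probe sets. Of all tested probe sets, 54.5% had lower mutant means, with a median of -0.05, against 46.4% and 0.03 with 1 probe set per gene. In 30 genes with more than 1 tested probe set, the 41 dimmer ones had a median of -0.43, with 36 lower, and the brightest ones had -0.21. Both kinds were alike in mutants 9216 (-0.25 brightest, -0.27 dimmer) and 9266 (-0.42 and -0.45) but not in mutant 8711 (0.06 and -0.41). The median log2 value of all tested probe sets was also lower in mutant 8711, at 6.21, with 6.73 to 6.84 elsewhere. Probe sets of a gene differed in sign for 6 genes. The 5 of Mcm3 had -0.37, -0.38, -0.61, -1.68 and 0.18, from brightest to dimmest, and the fourth had 2.4 in mutant 8711. The 3 of Orc3 had 0.19, -0.32 and 0.22, and the 3 of Rfc2 had -0.10, 0.25 and -0.04. The tested pairs were 0.01 and -0.60 for Gins3, -0.11 and 0.01 for Prim1, and 0.10 and -0.10 for Prim2, whose further probe set was under the filter at 0.05. Of the 42 chosen probe sets, 11 carried the suffix s or x, which the manufacturer gives to probe sets that can match several transcripts or genes. With these replaced where another was tested, 37 genes were lower, with a median of -0.38.

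**Figure D4:**
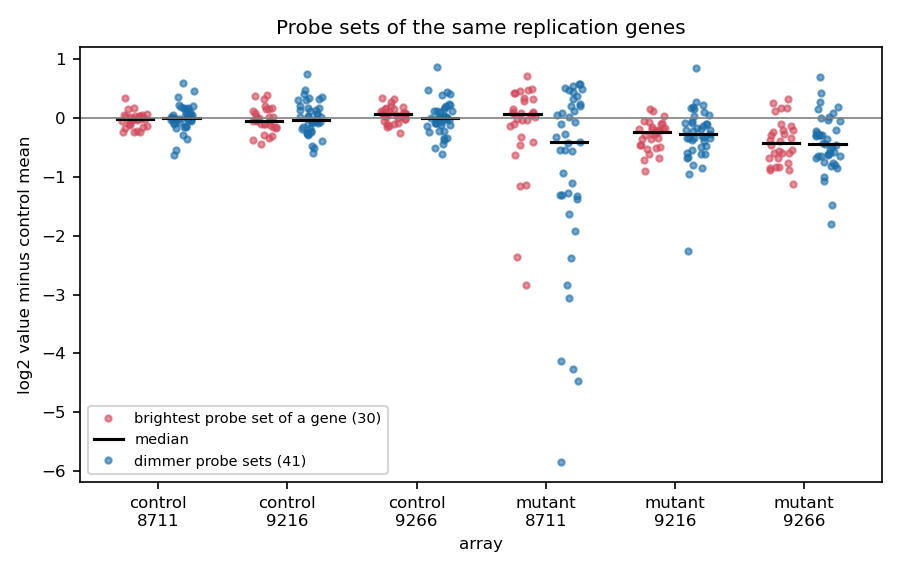
Log2 level relative to the control mean (vertical axis) of the brightest probe set (30 points) and the dimmer tested probe sets (41 points) of 30 replication genes in each array, with medians as bars. The medians differ in mutant 8711 (0.06 and -0.41) and lie close together in mutants 9216 and 9266.

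Other genes of the pathway also had lower values in most cases. There were 70 listed, among them further origin and fork factors, checkpoint mediators and enzymes of nucleotide supply, and 66 were tested. Of these, 52 (78.8%, against 46.4% of all genes) had lower mutant means. Their median was -0.26, or -0.29 without mutant 8711, where the 42 genes had -0.44. Before adjustment 7 (10.6%, against 2.52% of all genes) had p under 0.05 and were lower, and 0 were higher. This count ran from 2 without control 8711 or 9266 to 12 without mutant 8711. The background moved too, from 0.925% and 0.981% of all probe sets without those controls to 3.97% of all genes without mutant 8711. The 3 with the smallest p were E2f7, an E2F repressor, at -0.81 (SE 0.23), Ctps, which makes CTP, at -0.67 (SE 0.20), and Clspn, the checkpoint mediator Claspin, at -0.67 (SE 0.21). E2f7 had 349.6, 316.6 and 412.1 in control tissue and 171.7, 241.1 and 202.9 in mutant tissue, so its groups did not overlap. Their adjusted p ranged from 0.667 to 0.729 in limma. Of 31 mitosis genes, 30 were tested and 25 (83.3%, against 46.4% of all genes) had lower means, with a median of -0.25. Before adjustment 2 of them (6.67%, against 2.52% of all genes) had p under 0.05. This was 0 without control 8711, control 9266 or mutant 9266, 1 without either 9216 array and 7 without mutant 8711. The 3 with the smallest p were the kinesin Kif2c at -0.44, the kinase Aurka at -0.56 and the anaphase activator Cdc20 at -0.30. Median centring left 1 and 0 of these lists lower at that threshold, beside 506 of 27022 probe sets. No test compared the lists with each other. In their promoters, an E2F-type string was present for 17 of 57 other pathway genes (29.8%) and 1 of 28 mitosis genes (3.57%), and CCAAT for 54.4% and 75%.

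**Figure D5:**
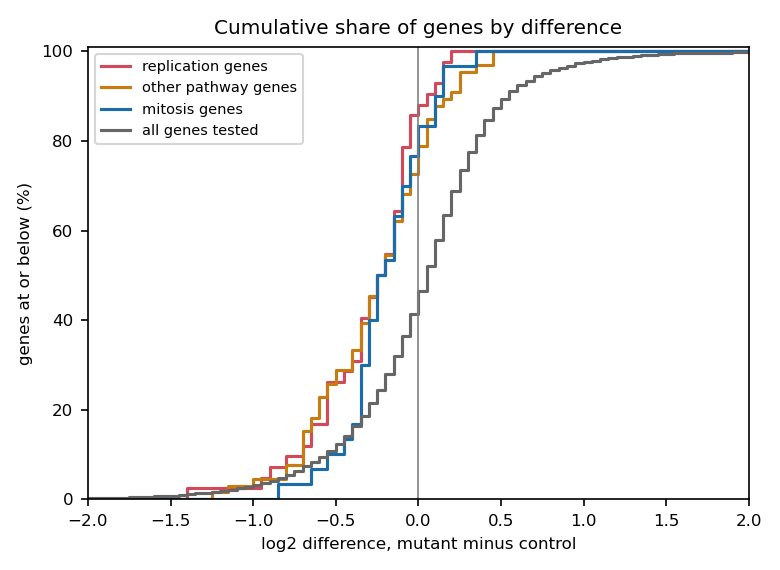
Cumulative share of genes (vertical axis, percent) by log2 difference (horizontal axis) for the replication genes, the other pathway genes, the mitosis genes and all genes tested. The curves of the 3 lists, with medians of -0.26, -0.26 and -0.25, lie to the left of the curve of all genes, with a median of 0.03, between -0.35 and 0.5.

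Levels of several lists of cell type markers also differed between the groups. Cell numbers and RNA per cell cannot be told apart in these values. The summed intensity of the neural retina progenitor markers, dividing cells of the inner optic cup, was 7788 to 8340 in the controls and 4960 to 6284 in the mutants, with 7 of 8 tested markers lower. The pigment epithelium markers summed to 12972 to 15128 in the controls and 21090 to 35170 in the mutants, with 10 of 10 higher. Their sums were 21090, 24624 and 35170 in mutants 8711, 9216 and 9266. Their median log2 levels relative to the control mean were 0.76, 0.76 and 1.37. Mutants 8711 and 9216 were thus level by this measure, where the replication genes had 0.03 and -0.28. The retina progenitor markers had another order. Their sums were 6284, 4960 and 5875 in mutants 8711, 9216 and 9266. Their median log2 levels relative to the control mean were -1.10, -0.91 and -0.62, lowest in mutant 8711. Periocular mesenchyme markers were higher in 9 of 9, with sums of 1053 to 2277 and 2762 to 3132. Macrophage markers summed to 1420 to 1942 and 2254 to 2669 (4 of 8 higher), and erythroid markers to 13307 to 17804 and 17037 to 18323 (5 of 5 higher). Sums for neurons were 228.1 to 380.1 and 113.9 to 217.4 (0 of 5 higher), for lens 2215 to 3308 and 1450 to 3162 (1 of 5 higher), and for endothelium 260.0 to 538.8 and 191.1 to 344.8 (2 of 5 higher). All these sums take in measured markers under the filter, and the counts do not. The 5 tested neuron markers alone summed to 157.4 to 215.8 in the controls and 87.3 to 158.2 in the mutants, which overlap. No marker was at 0 in any array, those of retina and pigment epithelium, which the labelled tissue holds, included. The part of these markers and of the RNA quality of mutant 8711 in the replication genes' values was not tested.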

How the data were processed

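Total RNA from optic fissure was extracted with Trizol, and biotin-labelled cRNA was made from 10 ug per the labels. MAS5 is named per the submitters' processing notes, and its version is not given in the sources used here. Values deposited are linear, 1 intensity for each probe set of an array. The 2% trimmed mean was equal in all arrays, so the authors' scaling was kept.

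Of 45101 probe sets, 64 manufacturer controls were left out, and 34945 of the others had 1 gene symbol. Values were taken as log2(intensity + 1.7), where 1.7 is the 10th percentile of the table, which understates differences of dim genes. Probe sets with a mean log2 value under the 40th percentile (4.07, an intensity of 15.1) were left out, leaving 27022 probe sets and 12282 genes. Arrays were compared with limma 3.58.1 (R 4.3.3, statmod 1.5.0) and its eBayes with trend and robust, and p-values were adjusted by Benjamini-Hochberg over all probe sets. Levels of different probe sets were not set against each other. Differences are mutant minus control, and SE is that of the fit.

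The members and lists were chosen with earlier results of these data known. Values in every array were given for members at an unadjusted p under 0.05, with groups that do not overlap, or with the smallest p of their role, and from the other lists the 3 smallest p were named. Array values of Mcm6, Gmnn, Pcna, Pola1 and Rrm1 were added after they were seen. Some genes of the comparison lists were not analysed here. The fit was tested on simulated data with 200 probe sets changed. Alternatives changed the added value, scaling, filter, variance model, array weights, probe set choice and arrays. Plots used Python 3.11.15 and matplotlib 3.10.9.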

Additional observations from a re-analysis of the deposited data

How the results depend on the processing

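Across the alternatives listed, between 26 and 40 of the 42 replication genes had lower mutant means, and 0 passed adjustment, the smallest adjusted p being 0.0542 with array weights. Of 52 genes named, 33 kept their direction throughout, 23 of them replication genes. Alternatives that left out both 8711 arrays, centred without mutant 8711 or replaced probe sets with suffix s or x were chosen after seeing the data. The cause of each shift was not tested.

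Counts below are at an unadjusted p under 0.05. The share of all genes lower without overlap was 5.43% with all arrays and 11% without mutant 8711. It was not counted in the other settings, so their counts without overlap have no background. Groups with fewer arrays also separate more easily. Array weights ranged from 0.15 for mutant 8711 to 5.98 for control 8711. With them, 184 of 27022 probe sets passed adjustment, 2323 were lower and 2273 higher. In the lists 17 of 42 replication (40.5%), 19 of 66 other pathway and 12 of 30 mitosis genes were lower. Mcm4 was 0.050, Orc3 -0.041, Prim2 -0.035, Rpa3 -0.10 and Ccne1 0.32. With median centring, 506 of 27022 probe sets were lower, 2 replication genes (4.76%) were lower and 4 did not overlap. In the other lists, 1 other pathway (median -0.10) and 0 mitosis genes were lower. Mcm2 was 0.10, Mcm4 0.12, Mcm7 0.025, Gins1 0.012, Gins2 0.021, Orc2 0.047, Gmnn 0.062, Pcna 0.0041, Rfc2 0.066, Prim1 0.051 and Ccne1 0.11. Without both 8711 arrays, 1 probe set passed adjustment and 456 of 27022 were lower. The replication genes had a median of -0.48, with 8 lower (19.0%) and 28 without overlap among the fewer arrays left. Beside them, 2 other pathway genes and 1 mitosis gene were lower. Gins3 was -0.054, Rfc4 -0.11, Prim2 -0.036, Rpa3 -0.088 and Ccne1 0.12. With centring and mutant 8711 left out, 1 probe set passed adjustment and 1145 of 27022 were lower. In the lists 17 replication genes (40.5%), 13 other pathway and 9 mitosis genes were lower, and 27 replication genes were without overlap. Gins3 was then -0.0030, Rfc4 -0.095, Prim2 -0.045, Rpa3 -0.17 and Ccne1 0.20. Without a filter, 1069 probe sets were lower and 1405 higher, and 1 mitosis gene was lower. Averaging a gene's probe sets had 14 replication (33.3%) and 4 mitosis genes lower, Gins3 at -0.30 and Rfc2 at 0.038. The share over all genes was not counted with averaging. Without suffix s or x, 8 replication genes (19.0%) were lower, beside 689 of 27022 probe sets. Plain eBayes had 0 mitosis genes lower, and quantile normalization put Ccne1 at 0.018.

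Leaving out each array in turn gave 0 to 1 probe sets past adjustment, 250 to 1082 lower and 442 to 1354 higher, 1 to 17 replication genes lower and 10 to 25 without overlap. Other pathway genes ranged from 2 to 12 lower with medians of -0.29 to -0.15, and mitosis genes from 0 to 7 with medians of -0.32 to -0.044. Differences ranged from -0.17 to 0.091 for Mcm2, -0.12 to 0.072 for Mcm4, -0.58 to 0.19 for Gins1, -0.42 to 0.020 for Gins2, -0.078 to 0.054 for Gins3 and -0.31 to 0.037 for Orc6. They ranged from -0.44 to 0.30 for Gmnn, -0.60 to 0.22 for Pcna, -0.061 to 0.20 for Rfc4, -0.38 to 0.13 for Prim1 and -0.011 to 0.25 for Prim2. For Rpa3 the range was -0.13 to 0.29, for Rrm1 -0.67 to 0.017, for Rrm2 -0.38 to 5.4e-05 and for Ccne1 -0.24 to 0.23.

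With the array number as a replicate block, 8 replication genes (19.0%) and 1 mitosis gene were lower, beside 731 of 27022 probe sets. Same-numbered control and mutant arrays had correlations of their deviations of 0.049, 0.48 and -0.11 for 8711, 9216 and 9266. Differently numbered arrays had -0.45 to 0.35, so only the 9216 arrays lay above that range. The numbers were not taken to pair the samples, and whether the 9216 arrays share a feature was not tested.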

Other observations

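Outside the 3 genes named by the smallest p, 4 more genes of the pathway list were lower in the mutants at an unadjusted limma p under 0.05, and they were chosen for this paragraph after their values were seen. Ticrr, which helps to bring Cdc45 to origins, had 185.3, 124.3 and 182.9 in control tissue and 64.2, 71.3 and 109.6 in mutant tissue, a log2 difference of -1.01 (SE 0.32). Wdhd1, which ties polymerase alpha to the helicase, had 631.2, 777.4 and 698.9 against 403.6, 594.5 and 319.5, a difference of -0.72 (SE 0.27). In both, every mutant value lay below every control value. Gart, an enzyme of purine synthesis, had 553.5, 540.2 and 557.2 against 251.6, 413.8 and 362.9, a difference of -0.71 (SE 0.23) without overlap. Cad, which starts pyrimidine synthesis, had 485.7, 300.8 and 597.6 against 204.2, 218.1 and 337.2, a difference of -0.84 (SE 0.33), with mutant 9266 above the lowest control. Their adjusted limma p ranged from 0.739 to 0.852.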
